A study of Homo sapiens with 15 samples.

Results

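The kallikrein (KLK), PRSS and TMPRSS genes encode serine proteases of the trypsin-like class, and their transcripts were followed in HepG2 cells depleted of the chromatin remodelling ATPases BRG1 and BRM. Members were chosen by symbol, not by a measured value: every row of the count table named KLK, PRSS or TMPRSS followed by digits alone, which gave 53 of 35012 rows (15 KLK, 28 PRSS and 10 TMPRSS). Symbols with another letter, such as KLKB1 or TMPRSS11A, fall outside the rule. The family was put forward with results of these data in view, among them changes between the 4 groups, so counts over the members are given as descriptions and support no statement about the family.

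HepG2 is an established human liver cancer cell line. The cells of all 15 libraries received lentivirus with a short hairpin RNA in the presence of polybrene, underwent puromycin selection and were collected 5 days after the virus was added. Of these libraries, 4 carried a non-silencing hairpin (NS), 4 a hairpin against BRG1 (gene SMARCA4), 3 a hairpin against BRM (gene SMARCA2) and 4 are labelled as the double knockdown of both. The labels do not say how many hairpin sequences were used for a target. They also do not call the replicates separate cultures, and p-values here reflect the spread between these libraries, which may be technical.

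Trypsin-like serine proteases are made as inactive zymogens and are switched on by a cut near the start of the protease domain. Kallikreins are secreted and lie in a single cluster on the long arm of chromosome 19, most PRSS proteins are secreted or tethered to the membrane by a lipid anchor, and TMPRSS proteins are type II transmembrane enzymes with the protease domain outside the cell. In the liver the best known of them is TMPRSS6 (matriptase-2), which cuts the BMP co-receptor hemojuvelin on hepatocytes and so lowers transcription of the iron hormone hepcidin.

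Libraries held 11500149 to 27187991 counts, so that 1 count corresponds to 0.0351 to 0.0922 CPM (counts scaled to library size). SMARCA4 stood at 307 ± 6.99 CPM (SD, n = 4) in NS against 27.8 ± 2.32 (n = 4) after BRG1 knockdown, and SMARCA2 at 39.2 ± 4.05 (n = 4) in NS and 4.38 ± 2.22 (n = 3) after BRM knockdown. Both were low after double knockdown, at 46.2 ± 6.09 and 2.57 ± 0.299 CPM (SD, n = 4). SMARCA4 was higher there than after BRG1 knockdown, by a log2 change of 0.73 ± 0.16 (SE, edgeR's quasi-likelihood test, adjusted p = 0.00858). The double and BRG1 groups thus differ in SMARCA4 as well as in SMARCA2. After BRG1 knockdown SMARCA2 was at 25.8 ± 3.64 CPM (SD, n = 4), with all libraries below those of NS. That change did not pass (edgeR, adjusted p = 0.0712), though it did in the authors' deposited table (-0.64, DESeq2 adjusted p = 0.0219). Libraries 1 and 2 of every group differed from libraries 3 and 4: mitochondrially encoded transcripts took 4.97 to 8.33% of counts in the former and 1.33 to 3.55% in the latter, 8134 of 14621 genes (55.6%) differed between the sets, and so did 9 of the 13 members tested. What libraries of 1 number have in common is not stated in the labels. For this reason changes are given over all libraries and then within each set, with libraries 1 and 2 first. All 12 hepatocyte markers were present, with a summed level of 25470 to 39150 CPM in NS, 6387 to 20820 after BRG1 knockdown, 49450 to 53500 after BRM knockdown and 11670 to 26560 after double knockdown. These sums are carried by a few abundant genes and do not stand for each marker, as given gene by gene beside TMPRSS6. The part of this shift in the results on the proteases was not tested. Pancreatic acinar markers summed to between 1.23 and 12.5 CPM in every library, with PNLIP and PTF1A at 0 throughout. In bulk RNA, fewer cells with a transcript and less of it per cell cannot be told apart.

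Most of the family was silent or near the detection limit. Of the 53 members, 18 had no count in any library, 16 had 1 to 29 counts over all 15 libraries, 6 had more but stayed below the filter on low counts (edgeR's filterByExpr), and 13 passed it and were tested. The 13 were the kallikreins KLK6 and KLK10, the PRSS genes PRSS8, PRSS22, PRSS23, PRSS27, PRSS36, PRSS53 and PRSS56, and the TMPRSS genes TMPRSS2, TMPRSS3, TMPRSS6 and TMPRSS9. Per kilobase of exon, the levels in NS ran from 1.34 CPM per kb for TMPRSS6, 1.13 for PRSS8, 0.966 for TMPRSS2 and 0.954 for KLK6 down to 0.0811 for PRSS22. The spread over NS libraries was wide for TMPRSS6 and TMPRSS2, which leaves neighbours in this order unseparated. After double knockdown PRSS22 had the highest mean (3.65 CPM per kb) and was highest in all 4 libraries. By group mean KLK6 was highest after BRG1 knockdown (3.23) and TMPRSS6 after BRM knockdown (3.6), but in BRG1 libraries 1 and 2 PRSS23 stood higher (2.90 and 4.07, against 2.73 and 2.41 for KLK6) and in BRM library 3 PRSS8 did (6.51). The length is that of all annotated exons of a gene joined, 11725 bases for PRSS23 and 1976 for KLK6. Without division by length, PRSS23 stood above KLK6 after BRG1 knockdown, at a mean of 24.7 CPM against 6.38.

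After BRG1 knockdown, 3 of the 13 tested members rose and 6 fell at an adjusted p under 0.05 (edgeR's quasi-likelihood test, Benjamini-Hochberg over all genes), that is 69.2%. Of all genes tested, 22.5% were called, 12.5% higher and 9.97% lower. The BRM hairpin gave 2 higher and 2 lower (30.8%), where 13.9% of all genes were called, 7.66% higher and 6.26% lower. The double knockdown gave 1 higher and 6 lower (53.8%), where 21.6% of all genes were called, 11.8% higher and 9.9% lower. The median log2 change of the 13 members was -0.42, -0.44 and -0.87 in these comparisons, and that of all genes tested 0.02, 0.03 and 0.02. PRSS56, which had no count in the BRM and double groups, lies below these medians at its bound as well. Of the called members, KLK6, PRSS22, PRSS56 and TMPRSS3 passed the filter only through groups in which they are high. The 3 comparisons share the NS libraries. Members whose libraries did not overlap those of NS numbered 6, 5 and 5 of 13 for the BRG1, BRM and double groups, against 28.5, 23.3 and 27.3% of all genes tested.

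**Figure D1:**
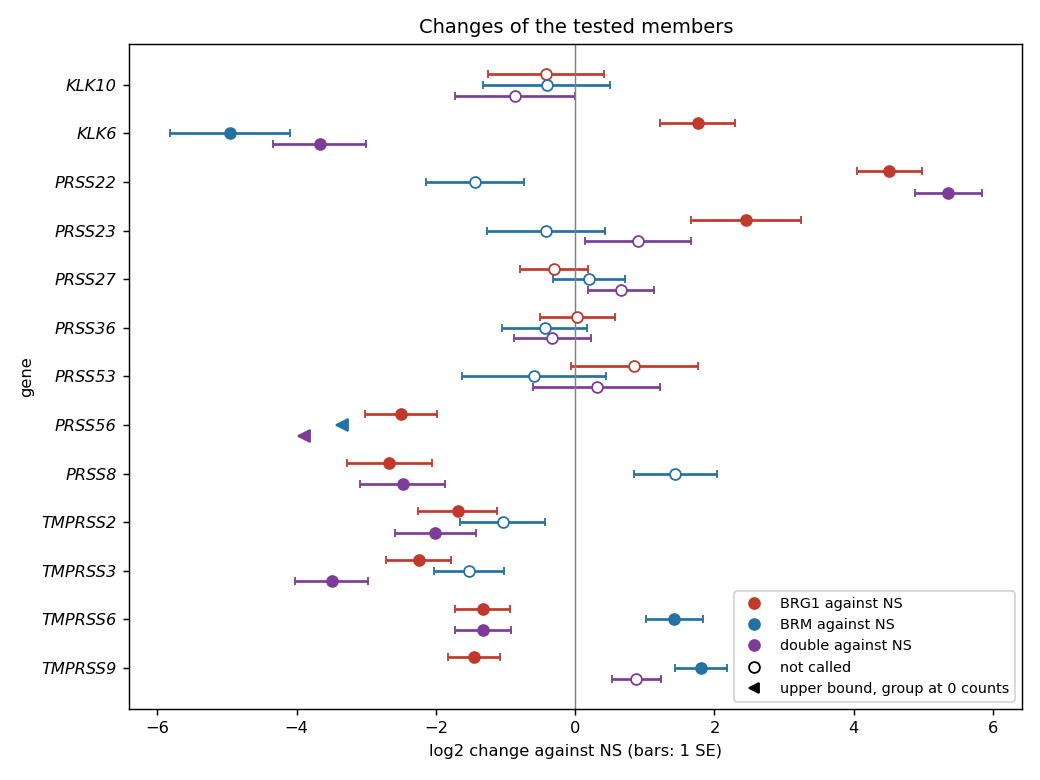
Log2 change against NS (horizontal axis, bars 1 SE) of the 13 tested members (vertical axis) for the BRG1, BRM and double groups. Filled points were called, open points were not, and left-pointing triangles are upper bounds for PRSS56 where the group had no count. PRSS22 lies farthest to the right after BRG1 knockdown (4.51) and after double knockdown (5.36), and KLK6 changes sides between the BRG1 hairpin (1.76) and the BRM hairpin (-4.96).

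The sequence before the start was looked up for the members that changed, because these carry the results. RefSeq promoter entries (GRCh38.p14) were matched by symbol for 39 members, among them 9 of the 13 tested and 5 of the 9 called in any comparison: KLK6, PRSS23, PRSS56, TMPRSS3 and TMPRSS9. The 250 bases before each annotated start were searched on both strands for 5 motifs. Among 35116 promoter windows of that length, TGANTCA (the AP-1 motif) occurs in 6.57%, TATAAA (the TATA box) in 10.7%, GGGCGG (a GC box) in 42.6%, CACGTG (an E-box) in 6.34% and GTTAAT (part of the HNF1 motif) in 6.23%. A match is a description of the letters, and no match says only that they are not in the window. Shown 5′ to 3′ on the strand of the gene are KLK6 (chr19:50969674-50969841, minus strand), which went up after BRG1 knockdown and down in both other groups, PRSS56 (chr2:232520138-232520387, plus strand) and TMPRSS3 (chr21:42389150-42389399, minus strand), which were lower after BRG1 knockdown and after double knockdown, and TMPRSS9 (chr19:2360015-2360237, plus strand), which moved in opposite directions with the 2 single hairpins. Each run stops before the gene's first annotated exon in the window, and capitals mark motif matches, written as they read on this strand.
KLK6: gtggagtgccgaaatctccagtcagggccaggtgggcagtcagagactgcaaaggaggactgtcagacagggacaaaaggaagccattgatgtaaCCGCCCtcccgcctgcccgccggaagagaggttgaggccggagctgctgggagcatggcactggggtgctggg
PRSS56: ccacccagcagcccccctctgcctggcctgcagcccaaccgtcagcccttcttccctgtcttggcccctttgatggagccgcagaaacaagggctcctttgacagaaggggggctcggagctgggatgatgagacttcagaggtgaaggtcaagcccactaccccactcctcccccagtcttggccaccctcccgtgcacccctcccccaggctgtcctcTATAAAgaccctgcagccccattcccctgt
TMPRSS3: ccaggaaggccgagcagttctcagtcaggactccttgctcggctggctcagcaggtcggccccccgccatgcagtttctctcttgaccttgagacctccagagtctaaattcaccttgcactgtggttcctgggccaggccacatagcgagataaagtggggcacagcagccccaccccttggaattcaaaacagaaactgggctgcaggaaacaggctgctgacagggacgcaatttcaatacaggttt
TMPRSS9: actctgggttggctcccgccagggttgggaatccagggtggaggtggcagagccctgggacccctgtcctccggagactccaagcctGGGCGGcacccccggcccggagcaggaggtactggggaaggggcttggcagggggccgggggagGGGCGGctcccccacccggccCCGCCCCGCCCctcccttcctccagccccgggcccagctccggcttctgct
The KLK6 run of 168 bases holds GGGCGG once, as its reverse complement, at -155 to -150, counted back from the annotated start, and the whole window holds it or its complement at 3 places. The window is 66.8% G or C with 12 CpG, where the median over all promoter windows was 58.0% and 11. PRSS56 has TATAAA at -30 to -25, in a window with 4 CpG and 63.2% G or C. A further PRSS56 entry, not shown, starts downstream and has the same TATAAA at -105 to -100. TMPRSS3 has none of the 5 motifs, in a window with 56.0% G or C and 6 CpG. This RefSeq start lies inside the gene as drawn by GENCODE 29. TMPRSS9 has GGGCGG or its complement at 5 places in the window, of which 4 fall in the 223 bases shown with a pair of them overlapping, and 75.6% G or C with 15 CpG. The windows thus differ in base content and share no motif among all of them.

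Of the kallikreins, KLK6 changed in opposite directions with the single hairpins. KLK6, a secreted trypsin-like kallikrein known mainly from the nervous system (ENSG00000167755.14, GRCh38 chromosome 19, 50958631 to 50969673, minus strand, protein-coding), was at 1.41, 1.60, 2.49 and 2.05 CPM in NS libraries 1 to 4 and at 5.40, 4.76, 8.44 and 6.93 CPM after BRG1 knockdown. After BRM knockdown it was at 0, 0 and 0.138 CPM, and after double knockdown at 0, 0.0675, 0.105 and 0.401 CPM. All BRG1 libraries lay above all NS libraries, and all BRM and double libraries below them. KLK6 passed the filter through NS and BRG1 alone, so the differences of these groups from the BRM and double groups are given as a description. The group means were 1.89 ± 0.483 (SD, n = 4) in NS, 6.38 ± 1.65 (n = 4), 0.0461 ± 0.0799 (n = 3) and 0.143 ± 0.177 CPM (n = 4).

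After BRG1 knockdown the log2 change of KLK6, with its SE, was 1.76 ± 0.54 (edgeR, adjusted p = 0.0289), with 1.76 and 1.73 within the sets. After BRM knockdown 3 counts over the group stood against 120 in NS, a ratio of 33.1 with an exact 95% interval of 11 to 163 for counting error only (edgeR, adjusted p = 0.00177). After double knockdown it fell by 3.67 ± 0.67 (edgeR, adjusted p = 0.00131), by 5.33 and 3.33 within the sets. Double libraries 1 to 4 held 0, 1, 3 and 7 counts of KLK6, so the 5.33 rests on 1 count. Against the BRG1 group the double knockdown was lower by a log2 change of -5.43 ± 0.68 (edgeR, adjusted p = 0.000267), and against the BRM group its change of 1.29 ± 1.01 did not pass (adjusted p = 0.428). The rise after BRG1 knockdown no longer passed without NS library 1, 2 or 4 (adjusted p = 0.0776, 0.075 and 0.054) or BRG1 library 1, 3 or 4 (adjusted p = 0.0554, 0.076 and 0.0599). Without library 4 of the double group the changes against NS and BRG1 were -4.81 and -6.52, and without BRM library 3 the BRM group had no count.

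KLK10, the other kallikrein tested (chromosome 19, 51012739 to 51020175, minus strand, protein-coding), was at 1.02, 1.44, 0.0923 and 0.0465 CPM in NS libraries 1 to 4. It was at 0.473, 0.414, 0.261 and 0.786 CPM after BRG1 knockdown, 0.0806, 0.2 and 1.11 after BRM knockdown and 0.328, 0.270, 0.492 and 0.286 after double knockdown. The NS libraries fall into a high pair and a low pair that follow the sets, and every other group overlaps them. No comparison of KLK10 passed over all libraries (adjusted p = 0.784, 0.833 and 0.529 against NS). Within the sets its changes against NS had opposite signs: -1.43 and 2.89 for BRG1, -2.95 and 3.94 for BRM, and -1.99 and 2.52 for the double knockdown. Within libraries 1 and 2 all 3 falls were called (edgeR, adjusted p = 0.0419, 0.00662 and 0.0212). Within libraries 3 and 4 the BRG1 and double values did not pass (edgeR, adjusted p = 0.0593 and 0.083). BRM is a single library there, so no p-value is given for it. All 3 of these rises rest on 1 count in each of NS libraries 3 and 4.

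The other 13 kallikreins stayed below the filter. KLK3, KLK5, KLK8, KLK9, KLK12 and KLK15 had no count, and KLK1, KLK2, KLK4, KLK11, KLK13 and KLK14 had 5 to 24 counts in all. KLK7, the chymotrypsin-like kallikrein of the skin and the neighbour of KLK6, had 32 counts in all, divided as 10, 7, 11 and 4 over the NS, BRG1, BRM and double groups. KLK13 had 17 counts in the BRG1 group and none in the BRM group, at least 3.48-fold higher with the BRM group set to 3 counts, and was called in that comparison when no filter was applied. Within the cluster of 15 genes on chromosome 19 (50819148 to 51084245), the level of KLK6 moved between groups while its immediate neighbours KLK5 and KLK7 were at 0 and at no more than 0.243 CPM in any library. Kallikreins are close paralogs, and the counting program divides reads that fit several transcripts, so the small counts of single members are uncertain.

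**Figure D2:**
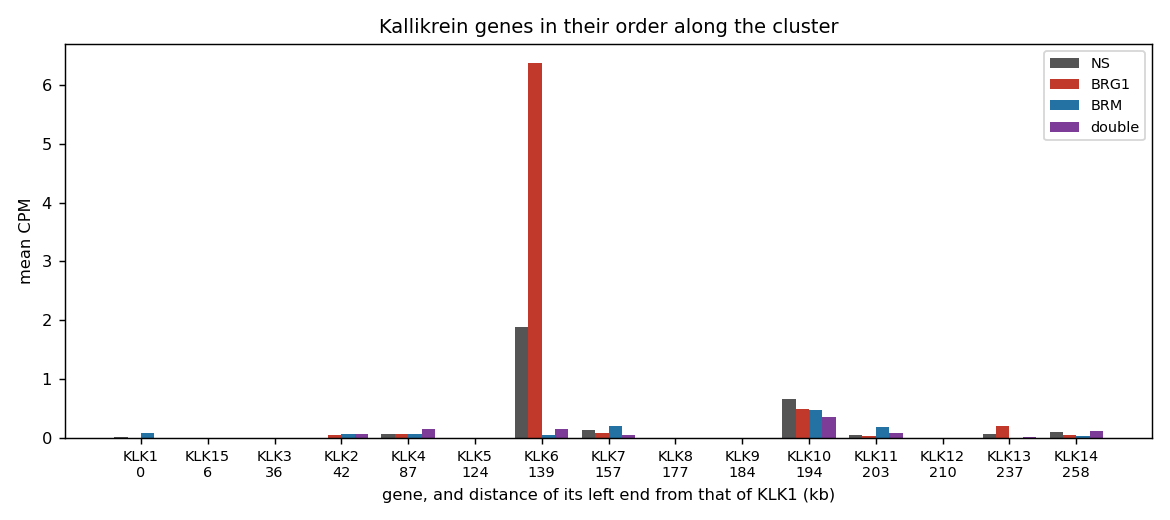
Mean CPM (vertical axis) of the 15 kallikrein genes in the 4 groups, ordered along chromosome 19 with the distance from the left end of KLK1 in kb (horizontal axis). KLK6 is the single tall set of bars, at 1.89 CPM in NS and 6.38 after BRG1 knockdown, KLK10 lies between 0.344 and 0.65, and KLK3, KLK5, KLK8, KLK9, KLK12 and KLK15 are at 0.

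Among the PRSS genes, PRSS22 went from a trace to the highest level per kb of any member after double knockdown. PRSS22 (ENSG00000005001.9, chromosome 16, 2852727 to 2858170, minus strand, protein-coding), an epithelial trypsin-like protease known to activate pro-urokinase, was at 0.243, 0.160, 0.0923 and 0.279 CPM in NS libraries 1 to 4. It was at 3.47, 3.57, 6.61 and 5.75 CPM after BRG1 knockdown and at 5.74, 5.80, 13.8 and 9.5 after double knockdown. In BRM libraries 1 to 3 it was at 0, 0.1 and 0.0922 CPM. Every BRG1 and double library lay far above every NS and BRM library, and the NS and BRM libraries overlapped. PRSS22 passed the filter through the 2 groups in which it is high, so its rises are given as a description.

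The rise of PRSS22 was 22.8-fold after BRG1 knockdown (log2 4.51 ± 0.47, edgeR adjusted p = 1.96e-05), with 4.02 and 4.78 within the sets. After double knockdown it was 41-fold (log2 5.36 ± 0.48, edgeR adjusted p = 5.69e-06), with 4.74 and 5.69 within the sets. The change after BRM knockdown, -1.44 ± 0.70, did not pass (edgeR, adjusted p = 0.203), nor did the difference of 0.85 ± 0.36 between the double and BRG1 groups (edgeR, adjusted p = 0.163). Urokinase itself (PLAU) stood at 9.57 ± 3.66 CPM in NS (SD, n = 4), 100.9 ± 3.59 (n = 4) after BRG1 knockdown, 3.28 ± 1.36 (n = 3) after BRM knockdown and 46.05 ± 29.9 (n = 4) after double knockdown.

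PRSS23, a secreted protease (chromosome 11, 86791059 to 86952910, plus strand, protein-coding), was highest after BRG1 knockdown but differed strongly between the library sets. It was at 8.11, 8.49, 0.830 and 0.604 CPM in NS libraries 1 to 4, and at 34.0, 47.7, 9.09 and 7.91 after BRG1 knockdown. The BRM libraries held 2.66, 4.90 and 2.54 CPM and the double libraries 7.05, 6.48, 14.9 and 5.04. BRG1 libraries 1 and 2 were the highest of all, while BRG1 library 4 lay below NS libraries 1 and 2, so that these groups overlapped. PRSS23 rose by 2.45 ± 0.79 on the log2 scale after BRG1 knockdown (edgeR, adjusted p = 0.0373), by 2.30 and 3.57 within the sets.

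The other changes of PRSS23 against NS were -0.42 ± 0.85 for BRM (adjusted p = 0.815) and 0.90 ± 0.76 for the double knockdown (edgeR, adjusted p = 0.459), with -1.09 and 1.78, and -0.29 and 3.81, within the sets. Its call after BRG1 knockdown was lost with no filter (adjusted p = 0.0716), with only the 2 groups in the fit (0.0989), without NS library 3 or 4 (0.0872 and 0.0746), without BRG1 library 1 or 2 (0.0953 and 0.135, the latter with a change of 1.86) and without double library 1 or 2 (0.0514 and 0.0506). The annotated span of PRSS23 overlaps FZD4 on the opposite strand, and the strand setting of the counting is not given in the sources used here. FZD4 stood at 217 ± 86.7 CPM in NS (SD, n = 4), 75.95 ± 5.33 (n = 4) after BRG1 knockdown and 74.02 ± 8.26 (n = 3) after BRM knockdown. Both were falls against NS (edgeR, adjusted p = 0.000768 and 0.00229). After double knockdown FZD4 was at 137 ± 31.6 CPM (n = 4), which did not pass (edgeR, adjusted p = 0.075). The part of FZD4 reads in the PRSS23 counts was not tested.

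PRSS56 and PRSS8 fell after BRG1 knockdown and after double knockdown. PRSS56 passed the filter through NS alone, the group in which it is high, so its falls against NS are given as a description. PRSS56, a protease known from eye development (chromosome 2, 232520463 to 232525716, plus strand, protein-coding), was low throughout, at 0.728, 0.481, 0.369 and 0.558 CPM in NS libraries 1 to 4 and 0.0789, 0.0517, 0.131 and 0.0983 after BRG1 knockdown. No count was found in any of the 3 BRM and 4 double libraries. All NS libraries lay above all others. With 37 counts in NS and 8 in the BRG1 group, PRSS56 fell by 2.50 ± 0.52 on the log2 scale (edgeR, adjusted p = 0.0072), by 3.08 and 2.05 within the sets. It was at least 10.2-fold lower after BRM knockdown and at least 14.9-fold lower after double knockdown, with the silent group set to 3 counts (edgeR, adjusted p = 0.00193 and 0.000439).

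PRSS8 (prostasin), a membrane-anchored protease that activates the epithelial sodium channel (ENSG00000052344.15, chromosome 16, 31131433 to 31135762, minus strand, protein-coding), was at 3.35, 2.56, 3.78 and 3.90 CPM in NS libraries 1 to 4. It was at 0.316, 0.259, 1.04 and 0.491 CPM after BRG1 knockdown and at 0.219, 0.472, 0.738 and 0.973 after double knockdown. In BRM libraries 1 to 3 it was at 2.98, 4.95 and 19.6 CPM. The BRG1 and double libraries all lay below the NS libraries, and of the BRM libraries 1 lay within the NS range, 1 just above it and 1 far above it. PRSS8 fell by 2.67 ± 0.61 on the log2 scale after BRG1 knockdown (edgeR, adjusted p = 0.0059) and, for the double knockdown, by 2.48 ± 0.61 (adjusted p = 0.00944). Within the sets these changes were -3.33 and -2.34, and -3.12 and -2.24. The change after BRM knockdown, 1.44 ± 0.59, did not pass (edgeR, adjusted p = 0.126), with 0.43 and 2.26 within the sets.

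PRSS27, PRSS36 and PRSS53 did not pass in any comparison over all libraries in the fit with neither a block nor a term for the sets. PRSS27 (marapsin) had group means of 0.587 ± 0.0628 CPM in NS (SD, n = 4), 0.468 ± 0.26 after BRG1 knockdown (n = 4), 0.693 ± 0.397 after BRM knockdown (n = 3) and 0.924 ± 0.350 after double knockdown (n = 4). Its difference between the double and BRG1 groups was 0.10 within libraries 1 and 2 (edgeR, adjusted p = 0.92) and 2.10 within libraries 3 and 4, where it passed (adjusted p = 0.0412). PRSS36 (polyserase-2) lay between 0.336 and 0.484 CPM in all group means. PRSS53 (polyserase-3) followed the library sets: in NS it was at 1.75 and 4.16 CPM in libraries 1 and 2 and at 0.277 and 0.372 in libraries 3 and 4. Between the BRG1 and BRM groups PRSS53 differed by 1.44 ± 1.03 (edgeR, adjusted p = 0.312), and with the replicate number as a block by 1.93, which passed (edgeR, adjusted p = 0.0108). It also passed with a term for the sets (1.85, edgeR adjusted p = 0.0151) and within libraries 1 and 2 (1.64, adjusted p = 0.0423). Within libraries 3 and 4 the difference was 2.65, and as BRM is a single library there, no p-value is given. PRSS53 overlaps ZNF646 on the opposite strand, which held 42.96 ± 11.2 CPM in NS (SD, n = 4), and AC135050.2 on its own strand. PRSS53, PRSS8 and PRSS36 lie within chromosome 16, 31083425 to 31150094, where all 3 members passed the filter and PRSS8 alone was called.

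**Figure D3:**
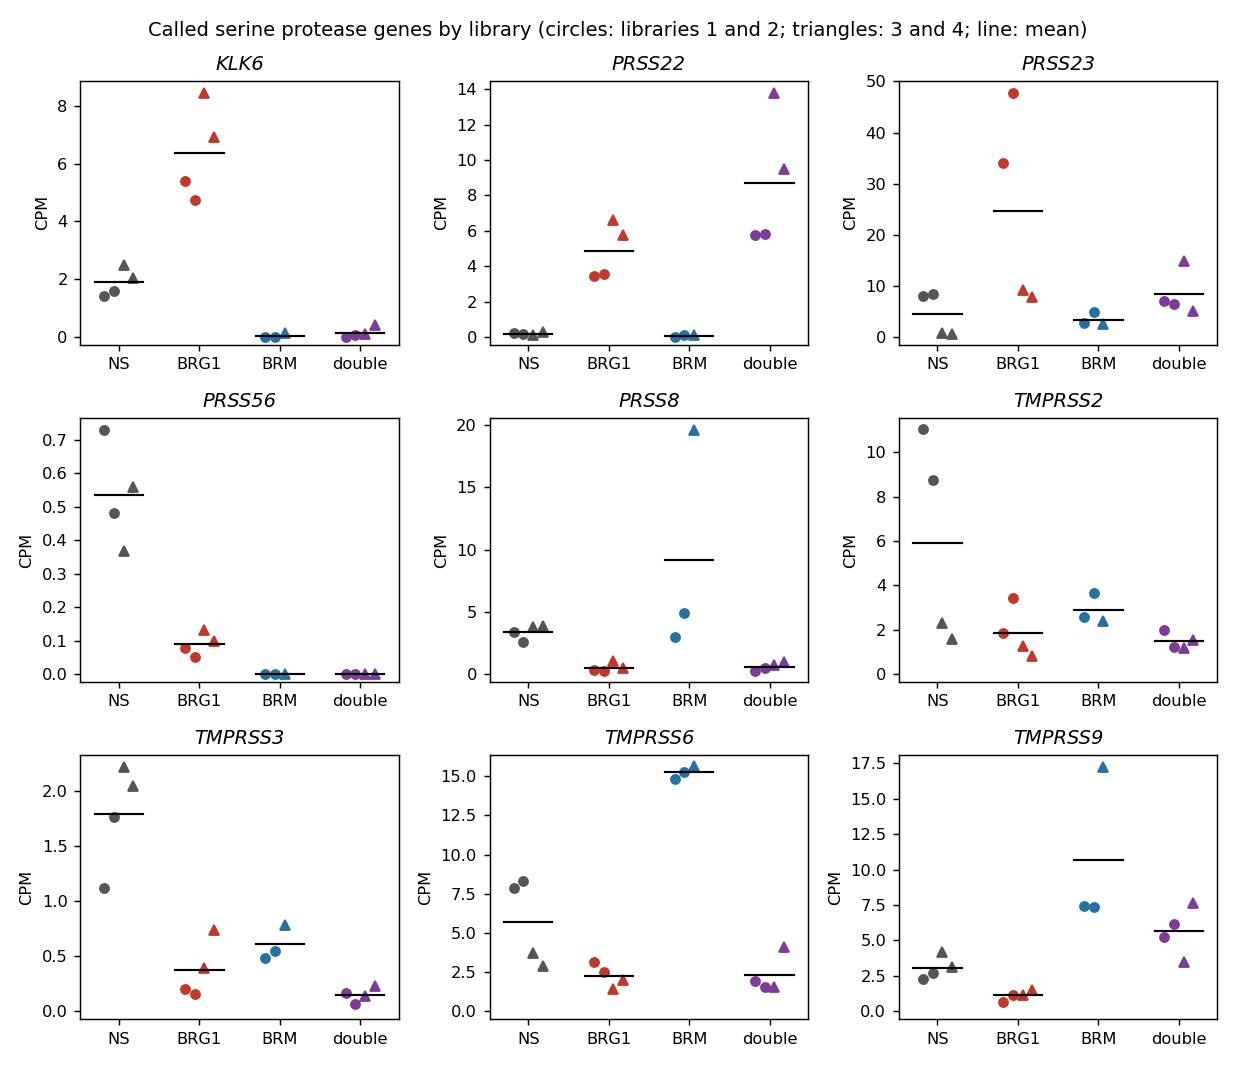
CPM (vertical axis) of the 9 members called in any comparison, by group (horizontal axis). Circles are libraries 1 and 2, triangles libraries 3 and 4, and the line is the group mean. PRSS22 is near 0 in NS and BRM and reaches 13.8 after double knockdown, whereas TMPRSS6 is highest in the 3 BRM libraries, between 14.8 and 15.6.

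Of the membrane proteases, TMPRSS6 and TMPRSS9 were lower after BRG1 knockdown and higher after BRM knockdown. TMPRSS6 (ENSG00000187045.18, chromosome 22, 37065436 to 37109713, minus strand, protein-coding) was at 7.87, 8.33, 3.69 and 2.88 CPM in NS libraries 1 to 4 and at 3.16, 2.53, 1.39 and 1.97 after BRG1 knockdown. The BRM libraries held 14.8, 15.3 and 15.6 CPM, and the double libraries 1.91, 1.55, 1.55 and 4.12. All BRM libraries lay above all others, while the BRG1 and double groups each overlapped the lower NS pair.

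TMPRSS6 fell by 1.33 ± 0.40 on the log2 scale after BRG1 knockdown (edgeR, adjusted p = 0.0273) and, for the double knockdown, by 1.32 ± 0.40 (adjusted p = 0.0298), and rose by 1.42 ± 0.41 after BRM knockdown (adjusted p = 0.0342). Within the sets the changes were -1.5 and -0.99, -2.21 and -0.28, and 0.90 and 2.18. The BRG1 call was lost without NS library 1 or 2 or BRG1 library 3 or 4 (adjusted p = 0.0838, 0.0706, 0.0737 and 0.0507), and the double call with only the 2 groups in the fit (0.0678) or without NS library 1 or 2 or double library 1, 2 or 3 (0.0893, 0.0755, 0.0669, 0.0704 and 0.0818). The BRM call was lost with only the 2 groups in the fit (0.0689) and without NS library 3 or 4, BRG1 library 2, any of BRM libraries 1 to 3, or double library 1 (0.0875, 0.0848, 0.0501, 0.0568, 0.103, 0.0718 and 0.0525). The double and BRM groups differed by -2.74 ± 0.43 (edgeR, adjusted p = 0.000483), and the BRG1 and BRM groups by -2.75 ± 0.43 (adjusted p = 0.000201). Of the 12 hepatocyte markers, 0 rose and 8 fell after BRG1 knockdown (median log2 change -1.35), 1 rose and 2 fell after BRM knockdown (median 0.42) and 0 rose and 4 fell after double knockdown (median -0.94). The markers called after BRM knockdown were FGB, higher by 2.87, and TTR and APOA2, with changes of -1.55 and -1.25 (edgeR, adjusted p = 0.0081, 0.000534 and 0.0421). The part of hepatocyte expression as a whole in the values of TMPRSS6 was not tested.

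TMPRSS9 (polyserase-1), which carries several protease domains in 1 chain (ENSG00000178297.13, chromosome 19, 2360238 to 2426239, plus strand, protein-coding), was at 2.28, 2.72, 4.15 and 3.11 CPM in NS libraries 1 to 4. It was at 0.671, 1.14, 1.13 and 1.52 CPM after BRG1 knockdown, 7.41, 7.35 and 17.2 after BRM knockdown and 5.25, 6.14, 3.48 and 7.67 after double knockdown. The BRG1 libraries lay below and the BRM libraries above all NS libraries, and the double libraries overlapped both NS and BRM. TMPRSS9 fell by 1.45 ± 0.37 on the log2 scale after BRG1 knockdown (edgeR, adjusted p = 0.0102) and rose by 1.81 ± 0.37 after BRM knockdown (adjusted p = 0.00522). Within the sets these changes were -1.48 and -1.47, and 1.57 and 2.18.

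The double knockdown of TMPRSS9 was higher than the BRG1 group by 2.33 ± 0.37 (edgeR, adjusted p = 0.00111). Against NS its change of 0.88 ± 0.35 did not pass (edgeR, adjusted p = 0.0891), whereas with the replicate number as a block the change of 0.91 passed (edgeR, adjusted p = 0.03). Within the sets it was 1.19 and 0.57. TIMM13, which overlaps TMPRSS9 on the opposite strand, stood at 59.5 ± 5.25 CPM in NS (SD, n = 4), 44.07 ± 17.3 (n = 4) after BRG1 knockdown, 94.8 ± 28.6 (n = 3) after BRM knockdown and 61.9 ± 15.2 (n = 4) after double knockdown. None of its changes against NS passed (edgeR, adjusted p = 0.284, 0.141 and 0.915). Like TMPRSS9, TIMM13 was lower in the BRG1 group than in the BRM group, by a log2 change of -1.11 ± 0.29 (edgeR, adjusted p = 0.0079). The part of TIMM13 reads in the TMPRSS9 counts was not tested.

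TMPRSS3 and TMPRSS2, less than 1 Mb apart on chromosome 21, were both lower after BRG1 knockdown and after double knockdown. TMPRSS3, a protease needed for hearing (42371837 to 42396846, minus strand, protein-coding), was at 1.12, 1.76, 2.21 and 2.05 CPM in NS libraries 1 to 4. It was at 0.197, 0.155, 0.392 and 0.737 CPM after BRG1 knockdown, 0.484, 0.550 and 0.784 after BRM knockdown and 0.164, 0.0675, 0.141 and 0.229 after double knockdown. All libraries of the 3 knockdown groups lay below all NS libraries. TMPRSS3 would not have passed the filter without NS, the group in which it is high, so its falls against NS are given as a description. TMPRSS3 fell by 2.25 ± 0.47 on the log2 scale after BRG1 knockdown (edgeR, adjusted p = 0.00318; -2.86 without BRG1 library 4) and, for the double knockdown, by 3.50 ± 0.52 (adjusted p = 0.000288). TMPRSS3 stood at a log2 change of -1.53 ± 0.50 after BRM knockdown, which did not pass (edgeR, adjusted p = 0.0575), though it did by DESeq2 (adjusted p = 0.0261) and limma voom (adjusted p = 0.0401) and without BRG1 library 2 or 4 (adjusted p = 0.0413 and 0.0285). Within the sets the changes were -2.94 and -1.95 for BRG1, -1.43 and -1.52 for BRM, and -3.49 and -3.59 for the double knockdown.

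TMPRSS2, the androgen-responsive protease that primes the surface proteins of influenza viruses and coronaviruses (ENSG00000184012.11, 41464551 to 41531116, minus strand, protein-coding), was at 11.02, 8.73, 2.31 and 1.58 CPM in NS libraries 1 to 4. The BRG1 libraries held 1.85, 3.41, 1.26 and 0.835 CPM, the BRM libraries 2.58, 3.65 and 2.40 and the double libraries 1.97, 1.21, 1.16 and 1.55. NS libraries 1 and 2 stood above all others, and NS libraries 3 and 4 lay among the knockdown libraries. TMPRSS2 fell by 1.69 ± 0.57 on the log2 scale after BRG1 knockdown (edgeR, adjusted p = 0.0449) and, for the double knockdown, by 2.01 ± 0.58 (adjusted p = 0.0219). The change after BRM knockdown was -1.04 ± 0.61 (edgeR, adjusted p = 0.303).

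Within the sets the log2 values of TMPRSS2 against NS were -1.92 and -0.90 for BRG1, -1.65 and 0.24 for BRM, and -2.62 and -0.56 for the double knockdown. The BRG1 call was lost by limma voom (adjusted p = 0.103), with only the 2 groups in the fit (0.106) and without NS library 1 or 2 or BRG1 library 1, 3 or 4 (0.169, 0.0987, 0.0867, 0.104 and 0.0906). The double call was lost by limma voom (adjusted p = 0.0839) and without NS library 1 or 2 or double library 2 or 3 (0.0846, 0.0523, 0.0521 and 0.0611).

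No further member passed the filter. TMPRSS4, TMPRSS5 and TMPRSS7 had 77, 53 and 31 counts in all, and TMPRSS12, TMPRSS13 and TMPRSS15 (enteropeptidase) had 14, 13 and 4. PRSS57 had 68 counts, at most 0.801 CPM in a library, and PRSS12 (neurotrypsin) 39. PRSS35 had 11 of its 12 counts in NS, 8 of them in 1 library. PRSS1 and PRSS2, which encode the main pancreatic trypsinogens, had no count in any library, as had PRSS21, PRSS38, PRSS41, PRSS42, PRSS44, PRSS45, PRSS46, PRSS50, PRSS54 and PRSS58. PRSS3, PRSS16, PRSS33, PRSS37, PRSS48 and PRSS55 had 1 to 8 counts.

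The knockdowns were also compared with each other. Between the BRG1 and BRM groups 4 members were higher after BRG1 knockdown and 3 lower (53.8%), where 33.9% of all genes were called, 17.2% higher and 16.7% lower. KLK6 was higher with 564 counts against 3, a ratio of 116 with an exact 95% interval of 39.3 to 562 (edgeR, adjusted p = 4.44e-05), PRSS22 by 5.95 ± 0.60 on the log2 scale (adjusted p = 5.61e-06) and PRSS23 by 2.87 ± 0.90 (adjusted p = 0.0228). PRSS56 was at least 1.64-fold higher (8 counts against 0, edgeR adjusted p = 0.0208). PRSS8 was lower by a log2 change of -4.10 ± 0.65 (edgeR, adjusted p = 0.000231; -2.9 without BRM library 3) and TMPRSS9 by -3.26 ± 0.39 (adjusted p = 2.37e-05), beside TMPRSS6. The PRSS23 call was lost without BRG1 library 2 (adjusted p = 0.0649) or BRM library 1 or 3 (0.0692 and 0.0739), and the PRSS56 call by DESeq2 (0.0861), with only the 2 groups in the fit (0.0642) and without BRM library 2 or 3 (0.0726 and 0.0733).

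The double knockdown differed from the BRG1 group in 1 member higher (TMPRSS9) and 2 lower (KLK6 and PRSS56), that is 23.1%. Of all genes 10.8% were called, 4.1% higher and 6.72% lower. For PRSS56 the difference was at least 2.4-fold (0 counts against 8, edgeR adjusted p = 0.0251). That call was lost by DESeq2 (0.0809), with no filter (0.0551), with only the 2 groups in the fit (0.0686), without BRG1 library 1, 3 or 4 (0.0554, 0.0546 and 0.0503) and without double library 1, 2 or 3 (0.0561, 0.0531 and 0.0642). From the BRM group it differed in 1 member higher (PRSS22, 6.79 ± 0.61, edgeR adjusted p = 6.98e-06) and 3 lower (30.8%), where 19.1% of all genes were called, 9.32% higher and 9.74% lower. The 3 were PRSS8 (-3.91 ± 0.65, edgeR adjusted p = 0.000716; -2.71 without BRM library 3), TMPRSS6 and TMPRSS3 (-1.97 ± 0.55, edgeR adjusted p = 0.0219). The TMPRSS3 call was lost without BRM library 3 or double library 2 or 3 (adjusted p = 0.0856, 0.0605 and 0.0625).

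Whether the double knockdown departed from the sum of the single ones on the log2 scale was tested as an interaction. It was called for 0 of the 13 members by edgeR, DESeq2 and limma voom, and for 0.499% of all genes by edgeR. For PRSS56, which had no count in the BRM and double groups, the interaction could not be estimated, so its place among the uncalled says nothing. At an unadjusted p under 0.05 edgeR gave 2 members: PRSS22 with 2.28 ± 0.79 (adjusted p = 0.227) and TMPRSS6 with -1.41 ± 0.58 (adjusted p = 0.331).

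Of the 39 changes of tested members against NS, 29 had the same sign within both library sets. All 20 called changes did so, and of the 19 not called 9 did and 10 did not. The 10 were KLK10 in all 3 comparisons, PRSS23 for BRM and double, TMPRSS2 for BRM, and PRSS27 and PRSS36 for BRG1 and BRM. Both sets entered the fit that gave the calls, so a shared sign of called changes is close to given and is no separate support. The set of libraries 3 and 4 holds a single BRM library, whose spread is taken to be that of the other groups.

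**Figure D4:**
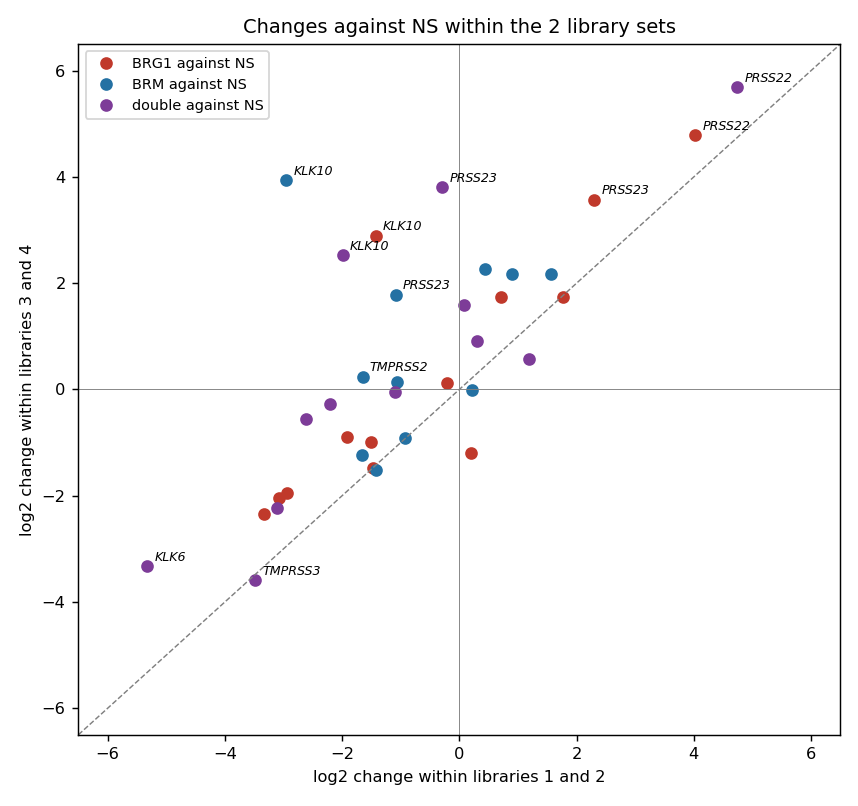
Log2 change against NS within libraries 1 and 2 (horizontal axis) and within libraries 3 and 4 (vertical axis) for the tested members, coloured by group, with comparisons that involve a group at 0 counts left out. The dashed line marks equal change. KLK10 lies in the upper left for all 3 knockdowns (for BRM at -2.95 and 3.94), and PRSS22 in the upper right.

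Genes listed as inhibitors of such proteases changed in both directions. Of 25 tested genes on a list of serine protease inhibitors, 8 rose and 10 fell after BRG1 knockdown (median log2 change -0.40), 5 rose and 6 fell after BRM knockdown (median -0.06) and 5 rose and 9 fell after double knockdown (median -0.49). Over all genes tested the medians were 0.02, 0.03 and 0.02, with 22.5, 13.9 and 21.6% called, which holds beside each list below as well. SERPINF1 (PEDF) is on the list as a serpin and does not itself inhibit proteases. Its log2 change was -2.59 ± 0.27 after BRG1 knockdown (edgeR, adjusted p = 1.96e-05) and -2.4 ± 0.27 in the double group (adjusted p = 3.01e-05). TFPI2, a Kunitz inhibitor of trypsin and plasmin, rose by 3.38 ± 0.37 after BRG1 knockdown (edgeR, adjusted p = 2.62e-05) and fell by 2.17 ± 0.47 after BRM knockdown (adjusted p = 0.00714).

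The Kunitz inhibitors SPINT1 and SPINT2, which bind prostasin, hepsin and matriptase, were looked up after their values were seen. SPINT1 stood at 11 ± 4.80 CPM in NS (SD, n = 4), was lower by a log2 change of -1.86 ± 0.48 after BRM knockdown (edgeR, adjusted p = 0.0187) and, for the double knockdown, of -2.11 ± 0.43 (adjusted p = 0.00305), and was at 0.08 ± 0.41 after BRG1 knockdown (adjusted p = 0.921). SPINT2, at 0.655 ± 0.307 CPM in NS (SD, n = 4), rose by 1.49 ± 0.38 after BRG1 knockdown (edgeR, adjusted p = 0.0115). Matriptase (ST14), the upstream activator of prostasin, was at 2.25 ± 0.305 CPM in NS (SD, n = 4) and did not pass against NS in any group (edgeR, adjusted p = 0.743, 0.901 and 0.086).

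A list of other trypsin-like proteases and related genes outside the 3 name families held 32 tested genes. It includes RELN, an extracellular matrix protein, which was called lower in all 3 comparisons with NS (log2 changes of -2.64, -2.53 and -4.38 for BRG1, BRM and double). After BRG1 knockdown 2 rose and 12 fell (median -0.90), after BRM knockdown 8 rose and 2 fell (median 0.28), and after double knockdown 1 rose and 6 fell (median -0.43). Many of them are coagulation and complement factors made by hepatocytes. PLAU rose by 3.40 ± 0.43 after BRG1 knockdown (edgeR, adjusted p = 8.27e-05) and, for the double knockdown, by 2.27 ± 0.41 (adjusted p = 0.00129). Hepsin (HPN), the liver's abundant transmembrane serine protease, fell by 1.87 ± 0.32 after BRG1 knockdown (edgeR, adjusted p = 0.000828), and coagulation factor X (F10) rose by 1.79 ± 0.27 after BRM knockdown (adjusted p = 0.000778).

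Of 16 tested substrates, receptors and activated ligands, 6 rose and 2 fell after BRG1 knockdown (median -0.07), 1 rose and 2 fell after BRM knockdown (median -0.02) and 5 rose and 2 fell after double knockdown (median 0.21). F2RL1, the protease-activated receptor cut by trypsin-like enzymes, went from 53.4 ± 9.30 CPM in NS (SD, n = 4) to 496 ± 124 (n = 4) after BRG1 knockdown, 23.8 ± 6.99 (n = 3) after BRM knockdown and 311 ± 96.8 (n = 4) after double knockdown. These are log2 changes of 3.21 ± 0.28, -1.17 ± 0.28 and 2.54 ± 0.27 (edgeR, adjusted p = 5e-06, 0.0142 and 2.03e-05). The urokinase receptor PLAUR rose by 2.81 ± 0.25 after BRG1 knockdown (edgeR, adjusted p = 6.15e-06) and, for the double knockdown, by 2.86 ± 0.25 (adjusted p = 5.51e-06). KNG1, the kininogen that kallikreins cut to release kinins, rose by 3.08 ± 0.48 after BRM knockdown (edgeR, adjusted p = 0.000875).

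The genes around TMPRSS6 in the control of iron were called in both directions, at shares near those of all genes. Of 23 tested members of the hepcidin and matriptase-2 list, 3 rose and 3 fell after BRG1 knockdown (median -0.17), 2 rose and 1 fell after BRM knockdown (median 0.23) and 4 rose and 2 fell after double knockdown (median 0.03). BMP6, the ligand that drives hepcidin through hemojuvelin, rose by 6.07 ± 0.59 after BRG1 knockdown (edgeR, adjusted p = 1.35e-05) and, for the double knockdown, by 5.80 ± 0.59 (adjusted p = 1.56e-05), from 0.465 ± 0.236 CPM in NS (SD, n = 4). TFR2, the iron-sensing transferrin receptor of hepatocytes, rose by 1.47 ± 0.46 after BRM knockdown (edgeR, adjusted p = 0.0441) and fell by 1.63 ± 0.44 after double knockdown (adjusted p = 0.0154). Hepcidin itself (HAMP) was at 118 ± 97.9 CPM in NS (SD, n = 4) and did not pass against NS in any group, with changes of -1.39 ± 0.67, 0.76 ± 0.70 and 0.03 ± 0.65 (edgeR, adjusted p = 0.16, 0.55 and 0.988). Between the single knockdowns HAMP was lower in the BRG1 group than in the BRM group, by a log2 change of -2.15 ± 0.71 (edgeR, adjusted p = 0.0305).

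Proprotein convertases and other activating proteases, 12 of them tested, gave 3 higher and 4 lower after BRG1 knockdown (median -0.06), 1 and 2 after BRM knockdown (median 0.07) and 3 and 2 after double knockdown (median -0.11). Furin, the convertase of the secretory pathway, rose by 1.34 ± 0.18 after double knockdown (FURIN, edgeR adjusted p = 0.000131). Cathepsin L (CTSL) rose by 0.98 ± 0.17 after BRG1 knockdown (edgeR, adjusted p = 0.000885) and, for the double knockdown, by 1.77 ± 0.17 (adjusted p = 1.12e-05). Cathepsin C (CTSC), which activates granule serine proteases, fell by 0.91 ± 0.14, 0.88 ± 0.15 and 1.32 ± 0.14 in the 3 knockdowns (edgeR, adjusted p = 0.00028, 0.00138 and 1.63e-05).

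In the authors' deposited tables, 9 members were under an adjusted p of 0.05 for BRG1 (3 positive and 6 negative of 17 with a value), 4 for BRM (2 and 2 of 14) and 7 for the double knockdown (1 and 6 of 20). The authors' deposited table for BRM has TMPRSS3 among the negative ones (-1.55, adjusted p = 0.0244) and gives no adjusted p for PRSS56. PRSS22 stands there at 4.52 for BRG1 and 5.37 for the double knockdown in the authors' deposited tables. These tables come from the same libraries and are not independent of the values above.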

How the data were processed

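RNA was measured in 15 HepG2 libraries grouped by their labels. The authors deposited whole-number counts per gene symbol, and per the submitters' processing notes kallisto and DESeq2 were used with GRCh38. For versions, transcript annotation and strand the sources used here give nothing. The program kallisto divides reads shared by similar transcripts, which bears on paralogs. Per the file headers, the authors' deposited comparison tables hold a mean signal (normalized count), a log2 fold change, its error, a test score and p-values before and after adjustment.

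Counts were tested as deposited. Of 35012 rows, 14621 passed filterByExpr and were fitted in edgeR 4.0.16 (R 4.3.3) with TMM factors, group means of all 15 libraries in 1 fit and a robust quasi-likelihood F test, adjusted by Benjamini-Hochberg over all genes. Genes under 0.05 are called. The SE is the log2 change divided by the square root of F. Alternatives used DESeq2 1.42.0, limma 3.58.1 (voom), DESeq2 size factors, no filter, a replicate block, a term for the library sets, only the groups compared, and each library left out. Floors are 3 counts over a group. Ratios of 1 to 3 counts carry exact 95% intervals. Both describe counting error alone, as the reads carry no molecular identifiers and are not separate molecules. Coordinates are those of GENCODE 29 for 52 members, and promoters those of RefSeq.

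Every member that passed the filter is named, those below it from 30 counts in all or as part of a count, and up to 4 called genes per list and comparison with NS could be named by smallest adjusted p. Members and lists were chosen with earlier results of these data known. Of the list entries, 252 matched by symbol and 3 did not. A list member that the naming rule picked is counted with its list but not reported by name here.

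Same-numbered libraries were taken as pairs where the deviations from the group means correlated above 0.1 in every pair, as between NS and BRG1 (0.427 to 0.565), NS and double (0.179 to 0.454) and BRG1 and BRM (0.104 to 0.532). The lowest correlation was 0.0733 for NS and BRM, 0.0578 for BRG1 and double and 0.0133 for BRM and double. Libraries of different numbers were not compared in this way. Because the library sets differ, the rule cannot tell a pair from a shared set. The chi-square between libraries of a group, divided by its degrees of freedom, was 5.21 to 226, so none was counted as a duplicate.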

Additional observations from a re-analysis of the deposited data

Results flagged for a closer look

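Of 38 sets of 4 libraries looked at, the CPM of each tested member in the NS, BRG1 and double groups, 1 held a library far from the rest. TMPRSS6 was at 4.12 CPM in library 4 of the double group, where the other libraries of that group lay between 1.55 and 1.91. The gap exceeded Dixon's 95% critical value for groups of 4. Chance alone marks about 1 in 20 such groups.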

How the results depend on the processing

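The changes of the 9 called members in every comparison, and the printed changes of KLK10 (against NS) and PRSS53 (BRG1 against BRM), were recomputed under other settings. Of 1552 such values, 1420 kept their direction and their side of the threshold, 74 lost the call, 30 gained it and 28 changed sign. The KLK10 value for BRM against NS within libraries 3 and 4 rests on 1 BRM library and 1 count in each NS library, so its p-value is not given. No other of the 28 was called. Counts of called members stayed within 1.5 times the main count, except 3. Within libraries 1 and 2 alone, chosen after seeing the data, 7 members were called for BRM against NS (main 4) and 2 for the interaction (PRSS23 and TMPRSS6, main 0). With a term for the sets the interaction gave 1, PRSS22 (edgeR, adjusted p = 0.0486). That term lost no call and also gained PRSS8 and TMPRSS3 for BRM against NS (1.28 and -1.41, edgeR adjusted p = 0.0129 and 0.012), PRSS22 for double against BRG1 (0.82, adjusted p = 0.0183), TMPRSS9 for double against NS and against BRM (0.92 and -0.92, adjusted p = 0.0188 and 0.0205) and PRSS53 as given above. Leaving out each library in turn gave 6 to 9 called members for BRG1 against NS, 3 to 5 for BRM against NS, 5 to 7 for double against NS, 2 to 3 for double against BRG1, 3 to 4 for double against BRM, 5 to 7 for BRG1 against BRM and 0 for the interaction. The causes were not tested. PRSS56 has no recomputed value for double against BRM, where both groups had no count, or for the interaction.

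With the replicate block, called members numbered 9 for BRG1, 6 for BRM and 8 for the double knockdown against NS, 4 for double against BRG1, 5 for double against BRM, 8 for BRG1 against BRM and 0 for the interaction. In comparisons where same-numbered libraries were not taken as pairs, the block gained PRSS22 for double against BRG1 (0.81, edgeR adjusted p = 0.0346). It also gained PRSS8 (1.13, adjusted p = 0.043) and TMPRSS3 (-1.32, adjusted p = 0.029) for BRM against NS, and TMPRSS9 for double against BRM (-0.96, adjusted p = 0.0314). Beside these and the TMPRSS9 and PRSS53 values given above, it changed no call.

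Changes of sign, of uncalled values apart from the KLK10 value named above, were as follows. Within libraries 1 and 2, KLK6 (interaction) was 0.66, PRSS23 (double against NS) -0.29 and TMPRSS6 (double against BRG1) -0.71. Within libraries 3 and 4, KLK10 was 2.89, 3.94 and 2.52 for BRG1, BRM and double against NS, PRSS23 was 1.78 (BRM against NS) and 0.24 (double against BRG1), TMPRSS2 0.24 (BRM against NS) and 0.34 (double against BRG1), TMPRSS3 -0.12 and TMPRSS9 -0.14 (interaction). By limma voom, KLK10 was 0.47, 0.02 and 0.14 in these 3 comparisons, PRSS23 was 0.40 (BRM against NS) and TMPRSS6 -0.08 (double against BRG1). Leaving out each library in turn, the range was -0.84 to 0.19 for KLK10 (BRG1 against NS) and -2.09 to 0.18 (BRM against NS), -1.5 to 2.76 for KLK6 and -1.61 to 0.01 for PRSS8 (interaction), -0.83 to 0.05 for PRSS23 (BRM against NS), and, for double against BRG1, -0.11 to 0.76 for PRSS8, -0.55 to 0.16 for TMPRSS2 and -0.43 to 0.22 for TMPRSS6. At these depths, changes of members under about 1 CPM rest on few counts.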
